A study of Mus musculus with 18 samples.

Results

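The 9 CXC chemokine ligands of this data set were Cxcl1, Cxcl2, Cxcl3, Cxcl5, Cxcl9, Cxcl10, Cxcl12, Cxcl14 and Cxcl16. They were taken by gene symbol and matched by Ensembl identifier to the 38887 genes of the libraries, and all 9 were found. The data were RNA-Seq of mouse bone marrow-derived macrophages (BMMs) that differ in GILZ, the glucocorticoid-induced leucine zipper encoded by Tsc22d3. Cells of 3 genotypes were left untreated or given lipopolysaccharide (LPS), which gives 6 groups of 3 libraries each, and the comparisons ask how GILZ abundance bears on the resting and the LPS-activated macrophage. All donors were adult female mice on the C57BL/6J background, and by the study's methods all carried Cre recombinase at the Lyz2 locus, which is active in the myeloid lineage. WT were described as these Lyz2-Cre mice, GILZ KO added a Tsc22d3 allele with loxP sites around exon 6, and GILZ TG added a Gilz-1 cDNA at ROSA26 behind a loxP-flanked stop. BMMs were grown for 6 days with M-CSF at 50 ng/ml, and LPS was given at 100 ng/ml for 4 h. The 3 libraries of a group are described as independent preparations. Nothing states that untreated and LPS libraries came from separate ones, and in GILZ TG the same-numbered libraries of the 2 treatments deviated together from their group means (r of 0.266 to 0.605 across genes, 3 pairs), so the p-values measure the spread between these libraries.

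CXC chemokines are small secreted proteins that guide leukocytes through G protein-coupled receptors. Ligands with a glutamate-leucine-arginine (ELR) motif before the CXC cysteines act on Cxcr2 and draw neutrophils, whereas the interferon-inducible ligands of Cxcr3 draw activated T cells and NK cells. Others, such as Cxcl12, are made by stromal cells at rest and keep cells in the marrow. In macrophages, LPS acts through Toll-like receptor 4, whose NF-kB and type I interferon branches are both known to drive chemokine transcription.

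In the mouse genome (GRCm38, GENCODE annotation), 6 of the 9 genes lay on chromosome 5 within 1589.53 kb. Their order was Cxcl5 at chr5:90759360-90761624, Cxcl3 at chr5:90786103-90789600, Cxcl1 at chr5:90891241-90893115 and Cxcl2 at chr5:90903871-90905938, all on the plus strand, then Cxcl9 at chr5:92321347-92328079 and Cxcl10 at chr5:92346638-92348889 on the minus strand. The remaining members were scattered, with Cxcl12 at chr6:117168535-117181367, Cxcl14 at chr13:56288643-56296551 and Cxcl16 at chr11:70453983-70459984. The transcript used for each gene had 4 exons, except for Cxcl16 with 5, and the coding length was 288 to 396 bases in 8 genes and 738 bases in Cxcl16, whose protein is a chemokine domain on a membrane-spanning stalk.

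Promoters were read from the RefSeq promoter table for GRCm38.p6, from 250 bases before to 50 bases after each start, and 7 of the 9 genes had an entry (Cxcl5 and Cxcl16 did not). The stretches below are those of the 4 ligands with the highest TPM after LPS among these 7, and they are shown because each holds a match to the NF-kB letters GGGANNTTCC, found in 1.43% of all 27025 promoters on either strand. They run 5′ to 3′ on the gene's strand, and capitals mark motif matches. In Cxcl1, Cxcl2 and Cxcl3 the capitals GGGAATTTCCC are a forward match and a reverse-strand match that overlap by all but 1 base. In Cxcl3, TATAAA is also in capitals, and in Cxcl10 the capitals mark, in order, the interferon-stimulated response element letters GAAANNGAAA, the NF-kB letters and the AP-1 letters TGANTCA.
Cxcl1, chr5:90891164-90891244, plus strand: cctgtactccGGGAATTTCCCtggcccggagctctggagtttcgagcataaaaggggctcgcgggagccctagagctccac
Cxcl2, chr5:90903792-90903898, plus strand: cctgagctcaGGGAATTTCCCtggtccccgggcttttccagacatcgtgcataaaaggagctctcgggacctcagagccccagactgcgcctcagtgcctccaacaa
Cxcl3, chr5:90786018-90786100, plus strand: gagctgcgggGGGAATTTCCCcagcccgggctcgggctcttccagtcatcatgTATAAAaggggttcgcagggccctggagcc
Cxcl10, chr5:92348890-92349112, minus strand: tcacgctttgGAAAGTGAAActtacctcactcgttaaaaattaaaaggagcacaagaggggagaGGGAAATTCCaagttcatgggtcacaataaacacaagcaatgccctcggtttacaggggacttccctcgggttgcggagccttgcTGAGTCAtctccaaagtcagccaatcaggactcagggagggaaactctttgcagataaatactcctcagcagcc
The NF-kB match began 71 bases before the RefSeq start in Cxcl1, 97 in Cxcl2 and 73 in Cxcl3, and its letters were the same in all 3 genes. In Cxcl10 it began 159 bases before the start, the GAAANNGAAA match 213 bases and the TGANTCA match 74 bases before it. The last 2 motifs were present in 3.49% and 7.93% of all promoters, and TATAAA in 14.2%. Cxcl9 had TGANTCA at base 32 after its start and TATAAA 195 bases before it, Cxcl14 had GAAANNGAAA 172 bases and the STAT letters TTCNNNGAA (8.47% of promoters) 191 bases before its start, and Cxcl12 held none of these 5 motifs in its window. A match describes letters, and no binding was measured.

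The 3′ untranslated regions were also compared, because the pentamer ATTTA marks AU-rich elements through which short-lived cytokine mRNAs are degraded. Cxcl1 held 7 copies, Cxcl2 held 11, Cxcl3 and Cxcl5 held 5 each, Cxcl12 held 4, Cxcl9 held 3, Cxcl10 and Cxcl16 held 2 each and Cxcl14 held 0. Over 20636 genes with an annotated 3′ untranslated region the median was 1, and 18.9% had 5 or more. Per kb, Cxcl2 with 15.0 and Cxcl1 with 11.8 stood highest among the 9, against a median of 1.12 over all genes.

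Reads assigned to genes numbered 14583055 to 38557029 per library (median 24450362). Depth was uneven between groups, with a median of 15491518 in GILZ KO and 33356120 in GILZ TG after LPS, so raw counts do not compare directly between genotypes. Tsc22d3 followed the labels: its level in TPM, a count of transcripts scaled for gene length and library size, was 16.5 ± 2.08 in WT, 2.34 ± 0.461 in GILZ KO and 156 ± 3.93 in GILZ TG without LPS, and 5.15 ± 0.627, 2.91 ± 0.392 and 132 ± 7.64 after LPS (mean ± SD, n = 3, as for all such values here). Lyz2, the locus that carries Cre, lay between 6766 and 15401 TPM in the 6 WT libraries and between 17.2 and 70.25 TPM in the other 12, so WT differed from both other genotypes at this locus too. How many copies of Cre the WT mice carried, or whether they carried it, is thus uncertain, and the part of this difference in any comparison with WT cannot be told apart from that of Tsc22d3. The 8 macrophage markers summed to 3920 to 5090 TPM in all 18 libraries, while T cell markers summed to at most 0.37 TPM and erythroid markers to at most 0.83 TPM. Endothelial and B cell markers each stayed at or below 13.6 TPM in sum, osteoblast markers at or below 2.77, platelet lineage markers at or below 1.70 and dendritic cell markers at or below 0.69. GILZ TG replicates 1 and 2 stood apart in both treatments: their 10 stromal fibroblast markers summed to 120 to 174 TPM against 6.70 to 31.9 TPM in the other 14 libraries, and their 8 neutrophil lineage markers to 187 to 516 against 20.7 to 83.5 TPM. In these 4 libraries 7 of the stromal and 5 of the neutrophil markers lay above all 14 others. So did 1 of 5 osteoblast and 1 of 5 endothelial markers, against 0 of 8 macrophage markers. The 4 libraries were picked after seeing the data, and the share over all genes was not computed. In bulk RNA, fewer cells of a type and less RNA per cell cannot be told apart.

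The question of the first comparison was what LPS does to each ligand. Within 4 h, 7 of the 9 ligands rose in every genotype, Cxcl14 fell in every genotype, and Cxcl12 was not called in any (edgeR quasi-likelihood test over 13169 genes, Benjamini-Hochberg adjusted p under 0.05). Of these 7, Cxcl5 and Cxcl9 passed the filter on low counts only through their LPS libraries, so the filter favoured a call as higher. Without the filter, 8 members were also called in each genotype, 7 of them higher. The same 8 called genes were also those whose LPS and untreated libraries did not overlap in TPM, which held for 81.2% of all tested genes in WT, 83.7% in GILZ KO and 80.9% in GILZ TG. LPS moved much of the transcriptome, and the members' counts are read against that: of all tested genes, 33.5% rose and 35.1% fell in WT, 33.2% rose and 35.4% fell in GILZ KO, and 33.6% rose and 35.1% fell in GILZ TG. Over the 9 members the median log2 fold change was 5.10 in WT, 6.11 in GILZ KO and 4.53 in GILZ TG, against -0.02 over all tested genes in each. These folds follow edgeR's TMM scaling. In the limma fit of log2(TPM + 1), which differs from the edgeR fit in scaling, length correction, pseudocount and test, the median of all genes was -0.51 in WT, and 2114 of the 10670 called genes rose, against 4415 of 9037 in the edgeR fit. The members' median in the limma fit was 3.99 in WT, 3.28 in GILZ KO and 3.90 in GILZ TG, so the order of the genotypes depended on the fit. In the edgeR fit, the median in WT and GILZ KO was the value of Cxcl5, a ligand with few resting counts. The called members kept their direction in both fits.

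**Figure D1:**
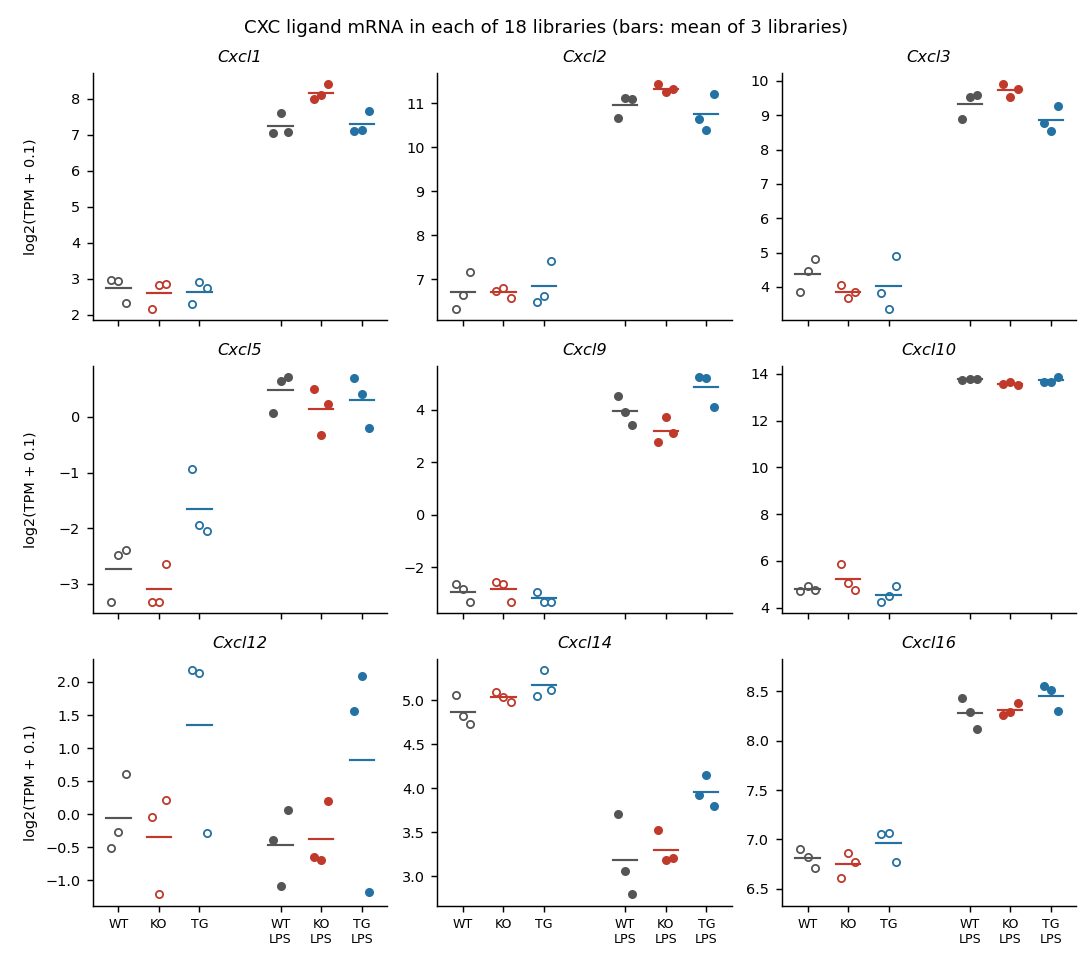
Level of each ligand in the 18 libraries as log2(TPM + 0.1), 1 panel per gene with its own axis; open circles are untreated and filled circles LPS-treated libraries, in grey for WT, red for GILZ KO and blue for GILZ TG, and bars are means of 3 libraries. Filled and open circles separate in 8 panels, upward in 7 and downward for Cxcl14, and overlap for Cxcl12.

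Among the ELR ligands, Cxcl2 (MIP-2), a major neutrophil attractant of macrophages, was the most abundant before and after LPS. Untreated, it was 80.2, 99.7 and 145 TPM in WT, 107, 113 and 95.8 TPM in GILZ KO, and 90.2, 98.5 and 170.2 TPM in GILZ TG. After LPS it was 1641, 2228 and 2209 TPM in WT, 2764, 2443 and 2569 TPM in GILZ KO, and 1599.8, 1359 and 2379 TPM in GILZ TG. Every LPS library thus lay far above every untreated one, and untreated genotypes overlapped. Cxcl2 rose by 4.85 (SE 0.30) on the log2 scale in WT, 5.26 (SE 0.31) in GILZ KO and 4.53 (SE 0.30) in GILZ TG, with adjusted p from edgeR of 1.99e-10, 9.64e-11 and 4.1e-10.

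Cxcl3, the close neighbour of Cxcl2 in sequence, was lower than Cxcl2 in every group. It was 14.3, 22.0 and 27.8 TPM in untreated WT, 16.4, 12.8 and 14.4 TPM in GILZ KO, and 14.1, 10.2 and 29.6 TPM in GILZ TG. With LPS it was 477, 738 and 766 TPM in WT, 951, 743 and 861 TPM in GILZ KO, and 440.04, 371 and 614 TPM in GILZ TG. The untreated groups overlapped, and GILZ KO and GILZ TG did not overlap after LPS. Its log2 fold changes with LPS were 5.58 (SE 0.35), 6.50 (SE 0.38) and 5.37 (SE 0.36) in WT, GILZ KO and GILZ TG (edgeR adjusted p at most 4.43e-10). Reads shared between Cxcl2 and Cxcl3 were a minor matter, since the deposited posterior SD of their counts was at most 0.984% of the count.

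Cxcl1 (KC), which acts on the same receptor, was low at rest and showed the clearest separation of GILZ KO from the other genotypes after LPS. Untreated, WT libraries held 7.68, 7.53 and 4.95 TPM, GILZ KO libraries 4.36, 7.01 and 7.09 TPM, and GILZ TG libraries 4.77, 7.33 and 6.58 TPM. LPS brought it to 132, 196 and 134 TPM in WT, to 256, 273 and 336 TPM in GILZ KO, and to 139, 139 and 204 TPM in GILZ TG. All 3 GILZ KO libraries lay above all 6 others after LPS, whereas the untreated groups overlapped. The rise was 5.15 (SE 0.25) on the log2 scale or 35.4-fold in WT, 6.21 (SE 0.26) in GILZ KO and 5.30 (SE 0.26) in GILZ TG, with edgeR adjusted p of 6.5e-12, 1.12e-12 and 5.9e-12.

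Cxcl5 (LIX), an ELR ligand best known from epithelial and stromal cells, stayed near the limit of detection. Its estimated counts at rest were 0, 2 and 2 in WT, 0, 0 and 1 in GILZ KO, and 8, 4 and 3 in GILZ TG. With LPS they were 21, 30 and 36 in WT, 26, 9 and 15 in GILZ KO, and 53, 36 and 14 in GILZ TG, or 1.32 ± 0.322, 1.03 ± 0.308 and 1.18 ± 0.383 TPM. At rest, GILZ TG lay above the other groups by a few counts, too few for the gene to be tested between genotypes. After LPS no genotype stood apart. Summed over libraries and per total count, the LPS-to-untreated ratio was 24.3 in WT (95% interval 9.14 to 91.0), 64.7 in GILZ KO (11.1 to 2606) and 5.43 in GILZ TG (3.14 to 10.1), where the exact intervals cover counting error only. The edgeR adjusted p of the rise was 8.64e-07, 1.85e-06 and 4.75e-05, for a gene that passed the filter on low counts only through its LPS libraries.

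Of the 2 Cxcr3 ligands among the members, Cxcl10 (IP-10) became the most abundant of the 9 mRNAs. At rest it was 26.4, 30.01 and 26.6 TPM in WT, 58.9, 33.5 and 27.1 TPM in GILZ KO, and 18.95, 22.4 and 30.2 TPM in GILZ TG. After LPS it was 13809, 14213 and 14028 TPM in WT, 12276, 12819 and 11687 TPM in GILZ KO, and 13059, 13059.9 and 14842 TPM in GILZ TG. All LPS libraries lay within a narrow band, in which the GILZ KO libraries were the lowest, and GILZ KO replicate 1 was the highest at rest. The log2 fold change was 9.61 (SE 0.28) in WT, 8.90 (SE 0.28) in GILZ KO and 9.78 (SE 0.29) in GILZ TG, or 779-, 478- and 881-fold, with edgeR adjusted p of 8.28e-15, 1.75e-14 and 7.57e-15.

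Cxcl9 (MIG), classically an interferon-gamma target, was close to absent at rest, with estimated counts of 3, 2 and 0 in WT, 3, 2 and 0 in GILZ KO, and 1, 0 and 0 in GILZ TG. LPS brought it to 22.8, 15.1 and 10.6 TPM in WT, 6.69, 13.1 and 8.59 TPM in GILZ KO, and 37.8, 37.4 and 17.3 TPM in GILZ TG. GILZ KO lay wholly below GILZ TG, and WT overlapped both. Summed counts were 1893 with LPS against 5 without in WT, 754 against 5 in GILZ KO and 4887 against 1 in GILZ TG. Per total count these are ratios of 422 (95% interval 181 to 1302), 195 (83.2 to 603) and 3866 (694 to 152730), and the width of the intervals comes from the few resting counts. The level reached stayed small beside that of Cxcl10, of whose TPM Cxcl9 made up 0.0545% to 0.289% after LPS.

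**Figure D2:**
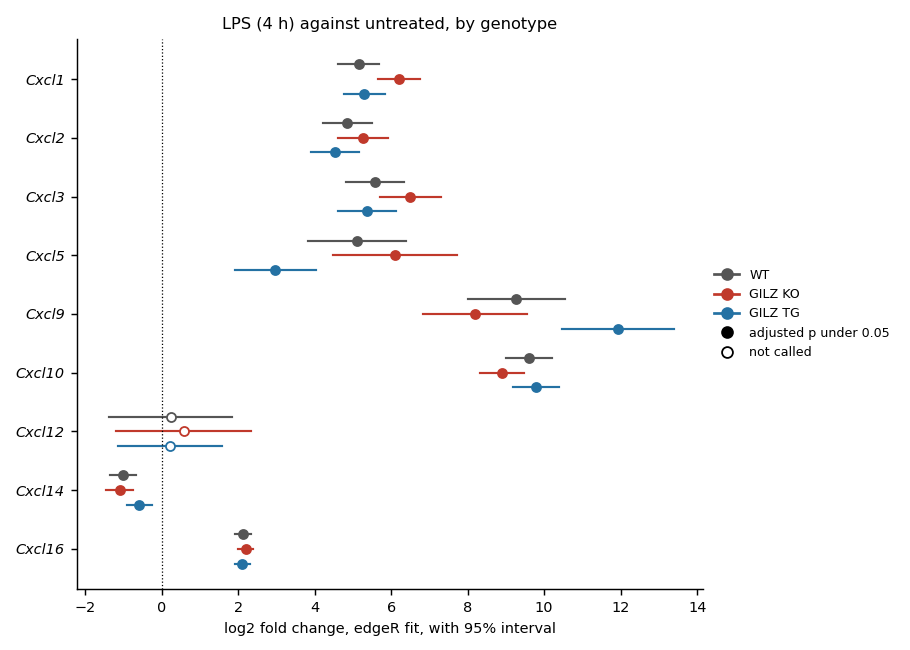
LPS against untreated log2 fold change of each ligand from the edgeR fit, with its 95% interval, for WT, GILZ KO and GILZ TG; filled symbols passed the adjusted p threshold. 7 ligands lie above 0 in all genotypes, Cxcl10 between 8.90 and 9.78 and Cxcl16 between 2.11 and 2.19, Cxcl14 lies below 0, and the intervals of Cxcl12 cross 0.

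Cxcl16, the membrane-anchored ligand of Cxcr6 that also serves as a scavenger receptor, was among the most abundant members at rest and rose the least of those that rose. It was 119, 113 and 104 TPM in untreated WT, 97.4, 117 and 109 TPM in GILZ KO, and 133, 134 and 109 TPM in GILZ TG. After LPS the values were 344, 312 and 278 TPM in WT, 307, 313 and 333 TPM in GILZ KO, and 375, 364 and 315 TPM in GILZ TG. The genotypes overlapped in both conditions. Cxcl16 rose by 2.13 (SE 0.09) on the log2 scale in WT, 2.19 (SE 0.10) in GILZ KO and 2.11 (SE 0.09) in GILZ TG, with edgeR adjusted p of 2.05e-12, 1.57e-12 and 2.24e-12. Over 14 settings its log2 fold change in WT ran from 1.46 to 2.22, so the size of the rise depended on the fit.

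Cxcl14 (BRAK), a ligand made constitutively in many tissues, was the member that fell. Its untreated level was 33.2, 28.04 and 26.4 TPM in WT, 34.1, 32.8 and 31.5 TPM in GILZ KO, and 33.0, 40.5 and 34.7 TPM in GILZ TG. With LPS it was 13.0, 8.24 and 6.82 TPM in WT, 11.4, 8.95 and 9.13 TPM in GILZ KO, and 15.1, 17.7 and 13.8 TPM in GILZ TG. No LPS library reached the lowest untreated one, and after LPS all 3 GILZ TG libraries lay above all 6 others. On the log2 scale it decreased by 1.01 (SE 0.17) in WT, by 1.10 (SE 0.17) in GILZ KO and by 0.58 (SE 0.16) in GILZ TG, with edgeR adjusted p of 3.47e-05, 1.98e-05 and 0.00334. Over 14 settings its log2 fold change in WT ran from -1.68 to -0.81, so the size of the fall depended on the fit. With GILZ TG replicate 3 as the only GILZ TG preparation, a choice made after seeing the data that assumes it varies like the other groups, the value in GILZ TG was -0.66 with an adjusted p of 0.0724.

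Cxcl12 (SDF-1), the marrow stroma's ligand for Cxcr4, did not follow LPS but differed between libraries. Untreated, it was 0.60, 0.73 and 1.42 TPM in WT, 0.87, 0.33 and 1.06 TPM in GILZ KO, and 4.44, 4.29 and 0.72 TPM in GILZ TG. With LPS it was 0.66, 0.37 and 0.94 TPM in WT, 0.54, 0.52 and 1.05 TPM in GILZ KO, and 2.84, 4.18 and 0.34 TPM in GILZ TG. The 4 high libraries were GILZ TG replicates 1 and 2, at 2.84 to 4.44 TPM against 0.33 to 1.42 TPM in the other 14, and they are the 4 libraries with the high stromal marker sum. GILZ TG replicate 3 lay within the range of WT and GILZ KO. The LPS log2 fold change was 0.24 in WT (95% interval -1.38 to 1.85), 0.58 in GILZ KO (-1.19 to 2.35) and 0.22 in GILZ TG (-1.14 to 1.58), with edgeR adjusted p of 0.802, 0.558 and 0.781. The intervals leave room for changes in either direction. On the TPM scale the mean fell in all 3 genotypes, from 0.917 to 0.657 in WT, so its direction depended on the scaling.

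**Figure D3:**
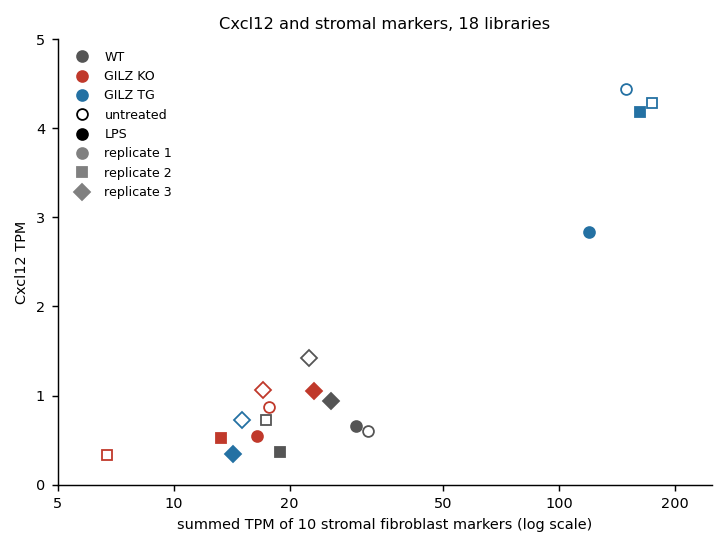
Cxcl12 in TPM against the summed TPM of 10 stromal fibroblast markers in each of the 18 libraries, coloured by genotype and filled for LPS. The 4 libraries of GILZ TG replicates 1 and 2 lie apart at 120 to 174 TPM of stromal markers and 2.84 to 4.44 TPM of Cxcl12, and the 2 of GILZ TG replicate 3 lie among the other genotypes.

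TPM divides by transcript length, so levels can be ranked between members. At rest, Cxcl16 and Cxcl2 led in all genotypes and overlapped each other. They were followed by Cxcl14, Cxcl10 and Cxcl3, whose order differed between genotypes, with Cxcl10 overlapping Cxcl14 in WT and GILZ KO and Cxcl3 in WT and GILZ TG. Next came Cxcl1, then Cxcl12, then Cxcl5 and Cxcl9, and from Cxcl3 to Cxcl1 and from Cxcl1 to Cxcl12 no libraries overlapped. After LPS the order was Cxcl10, Cxcl2, Cxcl3, Cxcl16 and Cxcl1 in every genotype, then Cxcl9 and Cxcl14, then Cxcl5 and Cxcl12. Cxcl9 and Cxcl14 overlapped in all genotypes, Cxcl16 and Cxcl1 in GILZ KO, Cxcl3 and Cxcl16 in GILZ TG, and Cxcl5 and Cxcl12 in GILZ KO and GILZ TG. In all, 32 of 48 neighbouring pairs within groups were separated.

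The 9 ligands together took 0.0282% to 0.0381% of all TPM at rest and 1.54% to 1.84% after LPS. Cxcl10 alone held 6.33% to 18.4% of the ligands' TPM at rest and 73.9% to 85.1% after LPS, while Cxcl16 went from 28.7% to 44.5% down to 1.59% to 2.39%. Within the sum of the ELR members, Cxcl2 held 77.1% to 85.0% at rest and 68.2% to 74.4% after LPS. After LPS the ELR sum was 2252 to 3163 TPM in WT, 3460 to 3973 TPM in GILZ KO and 1870 to 3198 TPM in GILZ TG, so GILZ KO lay above every library of the other genotypes. The ratio of Cxcl10 to the ELR sum was accordingly lowest in GILZ KO, at 3.09 to 3.70, against 4.49 to 6.13 in WT and 4.64 to 6.98 in GILZ TG.

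The next comparisons asked whether the genotypes differed at rest. No member was called in any of these 3 comparisons (edgeR, 12621 genes tested, 7 members among them, since Cxcl5 and Cxcl9 fell under the filter on low counts). Of all tested genes, 0.0951% were called for GILZ KO against WT, 0.642% for GILZ TG against WT and 4.94% for GILZ KO against GILZ TG. At an unadjusted p under 0.05 there were 0 members for GILZ KO against WT (9.6% of all tested genes), 2 for GILZ TG against WT (14.1%) and 3 for GILZ KO against GILZ TG (24.6%). DESeq2 called 0, 0 and 2 members, the last in a comparison where it called 9.65% of all genes, and limma on log2(TPM + 1) called 0 in each. The 2 for GILZ TG against WT were Cxcl12, higher by 1.84 (SE 0.63, edgeR adjusted p = 0.222), and Cxcl14, higher by 0.30 (SE 0.09, adjusted p = 0.174). For GILZ KO against GILZ TG they were Cxcl10 at 0.69 (edgeR adjusted p = 0.151), Cxcl12 at -2.22 (adjusted p = 0.0749) and Cxcl16 at -0.26 (adjusted p = 0.0938), and the last 2 were those called by DESeq2. Without GILZ TG replicate 3, edgeR called Cxcl12 in GILZ TG against WT and 2 members in GILZ KO against GILZ TG, while its calls over all genes rose from 81 to 665 and from 623 to 1306. With that replicate as the only GILZ TG preparation, Cxcl12 was -0.31 in GILZ TG against WT, the opposite sign. Libraries of the compared groups overlapped in TPM for all 7 tested members, while they did not overlap for 28.7% of all tested genes in GILZ KO against GILZ TG, 17.2% in GILZ KO against WT and 14.9% in GILZ TG against WT.

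After LPS, 1 of the 9 members was called between GILZ KO and GILZ TG. The libraries of these groups did not overlap in 6 members (20.6% of all 12164 tested genes), with the ELR ligands Cxcl1, Cxcl2 and Cxcl3 at higher TPM in GILZ KO and Cxcl9, Cxcl10 and Cxcl14 at higher TPM in GILZ TG. Cxcl5, Cxcl12 and Cxcl16 overlapped, and the ELR ligand Cxcl5 had the lower mean in GILZ KO (log2 fold change -0.21). Cxcl9 was the member that passed the test, in a comparison where 2.6% of all genes were called. GILZ KO held 9.45 ± 3.28 TPM of it and GILZ TG 30.8 ± 11.7 TPM, a log2 fold change of -1.73 (SE 0.35, 95% interval -2.51 to -0.95) or 3.32-fold, with edgeR adjusted p = 0.0325. Cxcl1 at 0.84 (SE 0.20) and Cxcl3 at 0.83 (SE 0.21) came next with edgeR adjusted p of 0.0535 and 0.0593, followed by Cxcl14 at -0.66 (SE 0.20, adjusted p = 0.102), Cxcl2 at 0.53 (adjusted p = 0.165), Cxcl12 at -1.85 (adjusted p = 0.170) and Cxcl10 at -0.17 (adjusted p = 0.299). All but Cxcl10 of these had an unadjusted p under 0.05, which makes 6 members with Cxcl9, against 19.1% of all tested genes.

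The calls between GILZ KO and GILZ TG after LPS moved with single libraries and with the tool. No member was called without GILZ KO replicate 1, GILZ KO replicate 3, GILZ TG replicate 1 or GILZ TG replicate 2, 1 was called without GILZ KO replicate 2, and 5 were called without GILZ TG replicate 3, where the calls over all genes rose from 316 to 1403. The adjusted p of Cxcl9 ran from 0.000111 to 0.427 over 16 settings, all with the lower level in GILZ KO. The highest was that with GILZ TG replicate 3 as the only GILZ TG preparation, where its log2 fold change was -0.93. In that fit the ELR ligands moved toward 0 as well, Cxcl1 from 0.84 to 0.46, Cxcl3 from 0.83 to 0.42 and Cxcl2 from 0.53 to 0.078. DESeq2 called Cxcl1, Cxcl3, Cxcl9 and Cxcl14 (5.88% of all genes), and limma on log2(TPM + 1) called 0, with Cxcl9 at an adjusted p of 0.0557. GILZ TG replicates 1 and 2, which held the most Cxcl9 and less Cxcl1, Cxcl2 and Cxcl3 than replicate 3, were those with the high stromal and neutrophil marker sums, and the part of these cells in the results was not tested.

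**Figure D4:**
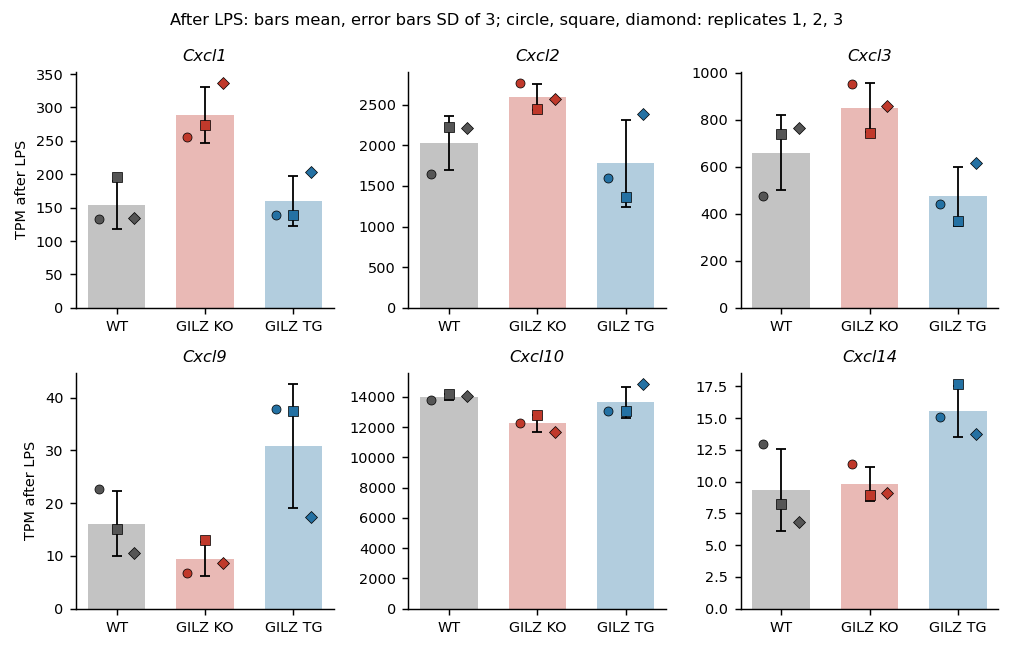
TPM after LPS of the 6 ligands whose GILZ KO and GILZ TG libraries did not overlap; bars are means and error bars SD of 3 libraries, with replicates 1, 2 and 3 as circle, square and diamond. The GILZ KO libraries lie above the GILZ TG libraries for Cxcl1, Cxcl2 and Cxcl3 and below them for Cxcl9, Cxcl10 and Cxcl14, and GILZ TG replicate 3 is the GILZ TG library nearest to GILZ KO in Cxcl1, Cxcl2, Cxcl3, Cxcl9 and Cxcl14.

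Between GILZ KO and WT after LPS no member was called (0.0822% of all tested genes), with 3 at an unadjusted p under 0.05 (9.63%) and 0 called by DESeq2 or by limma on log2(TPM + 1). Cxcl1 stood closest, with 289 ± 42.2 TPM for GILZ KO and 154 ± 35.9 TPM for WT, a log2 fold change of 0.89 (SE 0.20, 95% interval 0.45 to 1.34) with edgeR adjusted p = 0.192. The other 2 were Cxcl9 at -0.80 (edgeR adjusted p = 0.516) and Cxcl10 at -0.20 (SE 0.084, adjusted p = 0.476). Libraries did not overlap in 3 members, Cxcl1 and Cxcl2 with higher and Cxcl10 with lower TPM in GILZ KO, against 16.3% of all tested genes. Cxcl2 was 2592 ± 162 TPM in GILZ KO and 2026 ± 333 TPM in WT.

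Between GILZ TG and WT after LPS no member was called either (0.46% of all tested genes), with 4 at an unadjusted p under 0.05 (15.2%). These were Cxcl14 at 0.73 (SE 0.20, edgeR adjusted p = 0.132), Cxcl9 at 0.94 (adjusted p = 0.209), Cxcl12 at 1.85 (adjusted p = 0.206) and Cxcl3 at -0.47 (adjusted p = 0.308). Cxcl14, at 15.5 ± 1.98 TPM in GILZ TG and 9.34 ± 3.21 TPM in WT, was the 1 member whose libraries did not overlap (15.2% of all tested genes), and the 1 called by DESeq2 (2.25% of all genes), while limma on log2(TPM + 1) called 0. Without GILZ TG replicate 3, edgeR called all 4, with 1067 calls over all genes in place of 56, and without WT replicate 1 it called Cxcl14. With GILZ TG replicate 3 as the only GILZ TG preparation it called 0, and Cxcl12 was -1.07.

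**Figure D5:**
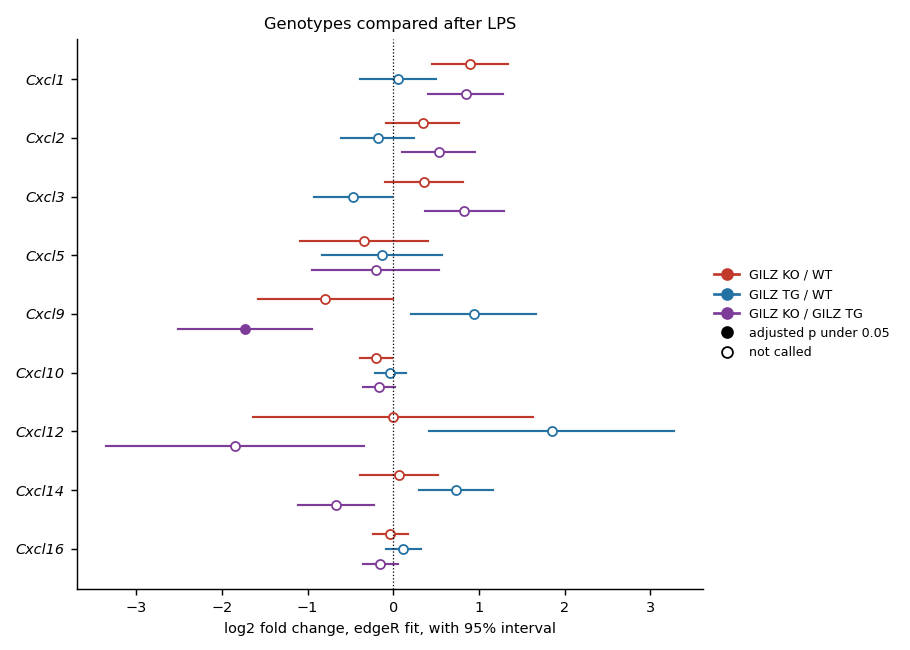
Log2 fold change of each ligand between genotypes after LPS from the edgeR fit, with its 95% interval, for GILZ KO over WT in red, GILZ TG over WT in blue and GILZ KO over GILZ TG in purple; a filled symbol passed the adjusted p threshold. The filled symbol is Cxcl9 at -1.73 for GILZ KO over GILZ TG, and Cxcl1 lies at 0.89 over WT and 0.84 over GILZ TG.

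The last comparison asked whether the response to LPS itself differed between genotypes, as an interaction in the fit of all 18 libraries. No member was called in any of the 3 pairs, as for nearly all genes: 0.0152% of all tested genes were called for GILZ KO against WT, 0.00759% for GILZ TG against WT and 0.121% for GILZ KO against GILZ TG. DESeq2 called 0 members in each, but gave an adjusted p to only 7, 9 and 8 of the 9 members in the 3 pairs. Limma on log2(TPM + 1) also called 0 in each. In the edgeR fit, 2, 1 and 5 members had an unadjusted p under 0.05, against 6.36%, 3.09% and 9.92% of all genes. A further fit paired the same-numbered untreated and LPS libraries within each genotype. It called Cxcl3 for GILZ KO against GILZ TG (1.08, edgeR adjusted p = 0.0239), with 144 genes called in place of 16. Without this pairing, the members at an unadjusted p under 0.05 for GILZ KO against WT were Cxcl1 and Cxcl10. The rise of Cxcl1 was larger by 1.06 (SE 0.37, edgeR adjusted p = 0.675), and that of Cxcl10 was smaller, at -0.71 (SE 0.29, adjusted p = 0.696). For GILZ TG against WT it was Cxcl5 at -2.13 (SE 0.85, edgeR adjusted p = 1.00), with the few resting counts given above. For GILZ KO against GILZ TG, Cxcl1 differed by 0.91 (edgeR adjusted p = 0.411), Cxcl3 by 1.13 (adjusted p = 0.399), Cxcl5 by 3.13 (adjusted p = 0.272), Cxcl10 by -0.88 (SE 0.29, adjusted p = 0.258) and Cxcl14 by -0.51 (adjusted p = 0.471).

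Most receptors of these ligands were too low to test. Of 10 CXC receptor genes, 2 passed the filter on low counts, and both were called lower after LPS in all 3 genotypes, as were 35.1% to 35.4% of all tested genes. Cxcr4 passed the filter only through its untreated libraries, so the filter favoured its call as lower. Cxcr4, the receptor of Cxcl12, was 8.05 ± 4.73 TPM in untreated WT and 0.213 ± 0.0416 TPM after LPS, a log2 fold change of -4.72, with -4.85 in GILZ KO and -3.89 in GILZ TG. Cxcr3, the receptor of Cxcl9 and Cxcl10, went from 7.82 ± 0.707 to 4.12 ± 0.112 TPM in WT. Its log2 fold change with TMM scaling was -0.29, a smaller fall than that in TPM, so its size depended on the scaling. On log2(TPM + 1) both receptors were also called lower in each genotype. Cxcr2, the receptor of the ELR ligands, was at most 0.23 TPM in any library, and Cxcr6, that of Cxcl16, was at most 0.39 TPM. No receptor was called between genotypes.

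Of 6 further CXC ligand genes, 3 were tested, with 2 called higher after LPS in WT and GILZ KO and 1 in GILZ TG, against 33.2% to 33.6% of all tested genes. Cxcl11, the third Cxcr3 ligand, whose gene carries a frameshift in C57BL/6 mice, was 0.06 to 1.52 TPM in untreated libraries and after LPS 173 ± 21.1 (WT), 111 ± 6.51 (GILZ KO) and 153 ± 11.5 TPM (GILZ TG). Its log2 fold changes were 8.74, 7.98 and 9.08, and no genotype comparison called it. After LPS the GILZ KO libraries, at 103 to 115 TPM, lay below the lowest library of GILZ TG (141 TPM) and of WT (149 TPM). Libraries did not overlap for 20.6% of all tested genes in GILZ KO against GILZ TG and for 16.3% in GILZ KO against WT. Pf4, platelet factor 4, was already at 1327 ± 141 TPM in untreated WT and at 1197 ± 159 TPM after LPS. Its log2 fold change with TMM scaling was 0.48 (edgeR adjusted p = 0.0235) in WT, and on log2(TPM + 1) Pf4 was not called in any genotype.

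In the NF-kB list, which holds subunits, inhibitors and feedback genes of the pathway, 11 of 11 genes were called higher after LPS in each genotype, against 33.5% of all tested genes in WT, 33.2% in GILZ KO and 33.6% in GILZ TG. The list's median log2 fold change in WT was 2.33, against -0.02 over all genes. Nfkbiz, which encodes the nuclear cofactor IkB-zeta, rose by 5.24, 5.30 and 5.17 in WT, GILZ KO and GILZ TG, the feedback inhibitor Tnfaip3 (A20) by 4.11, 4.16 and 4.07, and the subunit gene Rel by 3.51, 3.22 and 3.63. Of 15 interferon pathway genes, 13 were called higher and 2 lower in each genotype, beside the same shares of all genes called higher and 35.1% to 35.4% called lower, and 10 or 11 higher and 2 lower on log2(TPM + 1). Ifnb1, interferon-beta itself, was listed at 0 in all 9 untreated libraries and after LPS was 12.2 ± 3.98 (WT), 10.2 ± 0.404 (GILZ KO) and 17.8 ± 2.51 TPM (GILZ TG). It passed the filter on low counts only through its LPS libraries, so the filter favoured its call as higher. The interferon-induced factors Irf7 and Stat2 rose by 6.21 and 4.56 in WT.

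The lists that bear on mRNA decay and on protein cleavage moved less evenly. Of 9 mRNA stability genes, 5 were called higher in WT and GILZ KO and 6 in GILZ TG, and 3 were called lower in each, against 33.2% to 33.6% of all tested genes called higher and 35.1% to 35.4% called lower, whereas on log2(TPM + 1) 3 were higher and 5 lower. Zfp36 (tristetraprolin), which binds AU-rich elements and promotes decay, rose by 3.49, 3.51 and 3.33, and the RNase gene Zc3h12a (regnase-1) by 2.92, 3.00 and 2.58. Of 8 genes for proteases that cleave chemokines, 7 were tested, with 4, 5 and 4 called higher and 0, 1 and 0 lower in WT, GILZ KO and GILZ TG, beside those same shares. On log2(TPM + 1) the counts were 2, 3 and 2 higher and 2, 2 and 1 lower. Mmp14 rose by 5.09, 5.54 and 4.45, and Adam17 by 1.28, 1.24 and 1.35.

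Between genotypes, 46 of the 59 genes of these 6 lists were tested in each comparison. For GILZ KO against GILZ TG, 5 were called at rest (4.94% of all tested genes) and 4 after LPS (2.6%). For GILZ TG against WT it was 1 at rest (0.642%) and 1 after LPS (0.46%), and for GILZ KO against WT 0 at rest (0.0951%) and 0 after LPS (0.0822%). Mmp12, macrophage elastase, was 1199 ± 124 TPM in untreated GILZ TG against 523 ± 43.1 TPM in WT and 497 ± 32.2 TPM in GILZ KO, with a log2 fold change of 1.15 over WT (edgeR adjusted p = 0.000158), and it was higher than in WT by 1.03 after LPS (adjusted p = 0.000833). No GILZ TG library overlapped with the others. Irf1 and Irf8, transcription factors of interferon and myeloid genes, had a lower level after LPS in GILZ KO against GILZ TG, with log2 fold changes of -0.45 and -0.57 (edgeR adjusted p of 0.0323 and 0.0285). GILZ KO held 369 ± 22.9 TPM of Irf1 and GILZ TG 504 ± 43.8 TPM, and for Irf8 they held 87.9 ± 6.84 and 131 ± 12.6 TPM. Mmp14 was higher in GILZ KO than in GILZ TG after LPS by 0.44 (edgeR adjusted p = 0.0141). At rest, the log2 fold change of GILZ KO over GILZ TG was 0.31 for Adam10, 0.28 for Adam17, -0.72 for Zfp36l1 and -2.38 for Mmp2 (edgeR adjusted p from 0.0140 to 0.0465). Mmp2, a protease typical of fibroblasts, was at 1.48, 2.05 and 0.36 TPM in replicates 1, 2 and 3 of untreated GILZ TG, whose stromal marker sums were 149, 174 and 15.1 TPM, and the part of stromal cells in this call was not tested. In a difference of the LPS response, 0 of 47 tested list genes were called, against 0.00759% to 0.121% of all genes.

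For each member, the genes with the most similar pattern were sought among 11683 genes with a mean of at least 1 TPM, by Pearson's r of log2(TPM + 1) over the 18 libraries. These r describe a design in which LPS moves most genes, and libraries of a group share their conditions. Cxcl10 was closest to the interferon-stimulated genes Gbp2b, Rsad2 and Cmpk2, each at 0.999. Cxcl2 and Cxcl3 were among each other's closest genes at 0.996, and Tarm1 and Mapkapk2 were near both. Cxcl1 was closest to Vasp, Slc7a11 and Rffl, each at 0.993, Cxcl9 to Klrk1 at 0.994, and Cxcl16 to Src and Slc31a2 at 0.997. Cxcl14 was closest to Hexa at 0.983, and Cxcl12 to Tagln at 0.975, Loxl1 at 0.971 and Fkbp10 at 0.969. Cxcl5 was under 1 TPM and was left out.

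With the mean of each of the 6 groups subtracted, what is left is the variation between replicate libraries, and the neighbours changed for most members. Cxcl12 then went with the collagen genes Col6a2 at 0.965 and Col5a3 at 0.963 and with Loxl1 at 0.965. The spread of Cxcl12 was widest in GILZ TG, where replicates 1 and 2 lay above replicate 3 in both treatments, so these r lean on that difference. Cxcl10 went with Rsad2 at 0.931, Mx2 at 0.924 and Septin7 at 0.919. Cxcl2 went with Clec4e at 0.959, the sterol synthesis gene Fdps at 0.948 and Emb at 0.943. Cxcl3 went with Sqle, another gene of sterol synthesis, at 0.950, with Cd24a at 0.936 and again with Tarm1 at 0.928. Cxcl16 went with Slc31a2 at 0.971, Cxcl9 with Trip10 at 0.926, Cxcl14 with Cdc37l1 at 0.905 and Cxcl1 with Fam234b at 0.850. Slc31a2 was thus the neighbour of Cxcl16, Rsad2 that of Cxcl10, Tarm1 that of Cxcl3 and Loxl1 that of Cxcl12 on both measures.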

How the data were processed

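Poly(A) RNA (500 ng from cultures of 500000 cells) was made into stranded libraries with 12 PCR cycles and read as single 75-nt reads. The submitters' processing notes name FastQC (0.11.2) and DESeq2 (1.40.2), and the study's methods name the grape-nf pipeline on mouse GRCm38. For each library the authors deposited a gene table with expected counts in the layout of RSEM, their posterior SD, and TPM values. The authors' 9 tables of DESeq2 fold changes and p-values were used for gene symbols only. Over all libraries together, 14 rows without a gene were dropped.

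Expected counts were rounded and tested with edgeR 4.0.16 (quasi-likelihood test, TMM scaling, filterByExpr, adjusted p under 0.05 by Benjamini-Hochberg) in R 4.3.3. LPS effects and differences in the LPS response came from all 18 libraries, and genotype effects from the 9 libraries of a treatment. SE is the log2 fold change divided by the root of F. DESeq2 1.42.0 and limma 3.58.1 on log2(TPM + 1) and log2(TPM + 0.1) were alternatives. Other alternatives were DESeq2 size factors, no filter, a filter of 10 counts in every library of a group, other sample sets, a replicate block and leaving out each library. The block was the replicate number for genotype effects. For LPS effects and differences in the LPS response it was genotype and number together. The edgeR and DESeq2 fits were also run on simulated counts with the same spread for every gene. That setting lacks the uneven replicates of these data, so it does not speak for the calls between genotypes. With 14583055 to 38557029 reads on genes per library, intervals of count ratios cover counting error only. TPM was used for levels.

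The members and the gene lists were chosen with earlier results of these data known. Named are all members, Tsc22d3 and Lyz2, list genes called between genotypes, the 3 of each list with the largest LPS change in WT (a selection of them is printed), and the 3 genes most like each member (likewise). Replicates differed beyond sampling noise, with a chi-square per gene of 3.40 to 36.3 over 18 pairs. One added choice, GILZ TG replicate 3 as the lone GILZ TG preparation, was made after seeing the data.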

Additional observations from a re-analysis of the deposited data

How the results depend on the processing

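With 3 libraries per group, counts of called members between genotypes moved with the settings, while the LPS counts of 8 called members per genotype did not, except for 7 in GILZ TG with its replicate 3 alone. Each value below counts members called at an adjusted p under 0.05, and the causes of the shifts were not tested. For GILZ KO against GILZ TG after LPS, 1 member was called in the report, 6 without a filter on low counts, 2 with the stricter filter, 4 by DESeq2, 0 by limma with either pseudocount (1 or 0.1), 3 with only the compared libraries, 3 with all 18 libraries in one fit, 0 with GILZ TG replicate 3 alone, and 0 to 5 when single libraries were left out. For GILZ TG against WT after LPS, against 0 in the report, 3 were called without a filter, 1 by DESeq2, 1 with all 18 libraries and 0 to 4 when single libraries were left out. For GILZ KO against WT after LPS, 1 was called without a filter (Cxcl1). At rest, GILZ KO against GILZ TG gave 1 without a filter, 2 by DESeq2 and 0 to 2 when single libraries were left out, and GILZ TG against WT gave 0 to 1. Over all genes, the 316 calls between GILZ KO and GILZ TG after LPS became 715 by DESeq2, 822 without a filter, 147 by limma with a pseudocount of 1 and 34 with GILZ TG replicate 3 alone. The corresponding counts for GILZ KO against WT were 10, and 100 by DESeq2, and for GILZ TG against WT 56, and 274 by DESeq2. Cxcl12 changed sign with GILZ TG replicate 3 alone, to -0.31 for GILZ TG against WT at rest (adjusted p = 0.903), -1.07 after LPS (adjusted p = 0.799) and 1.07 for GILZ KO against GILZ TG after LPS (adjusted p = 0.621).

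Groups shared replicate numbers, but same-numbered libraries deviated together (r over 0.1) in 2 of 18 pairs between genotypes and in 4 of 9 pairs of untreated and LPS libraries, so the numbers were not taken to pair them overall (in GILZ TG all 3 untreated and LPS pairs did, and the block left its 8 LPS calls), and each library was closest to its own number in 4 of 18 and 5 of 9 pairs. With the replicate block, 3 members (Cxcl1, Cxcl3 and Cxcl9) were called for GILZ KO against GILZ TG after LPS and 1 (Cxcl3) for the difference in their LPS response, and no other count of called members changed by over 1.5 times. In all, 175 of the recomputed counts stayed within 1.5 times the reported one and 25 did not. Fold changes of single members were recomputed where the edgeR unadjusted p in the report was under 0.05. These were 24 for LPS, 8 for the difference in LPS response and 18 between genotypes. Of the recomputed values, 746 kept their direction and call, 37 gained a call, 8 lost one and 3 changed sign. LPS fold changes made up 343 of the 746. Those between genotypes made up 239 of the 746, 36 of the 37, 7 of the 8 and all 3 that changed sign. Cxcl5 and Cxcl9 at rest, with at most 8 counts per library, were below what this depth can compare between genotypes.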
